A study of Rattus norvegicus with 8 samples.

Results

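The genes described here are the receptor chains for type I and type II interferon and the JAK-STAT relay beneath them: Ifnar1, Ifnar2, Ifngr1, Ifngr2, Jak1, Jak2, Tyk2, Stat2, Irf9 and Socs1. Members were the probe sets whose platform annotation gives 1 of these symbols alone, which found all 10 genes of the 14217 genes with such a probe set, through 21 of 31042 probe sets. A probe set is the group of short probes by which an Affymetrix array reads a transcript, and a gene can have several.

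Type I interferons bind the Ifnar1 and Ifnar2 chains, which carry the kinases Tyk2 and Jak1, and interferon gamma binds Ifngr1 and Ifngr2, which carry Jak1 and Jak2. The type I receptor activates the factor ISGF3, which holds Stat2 and Irf9 and switches on antiviral genes, and the type II receptor acts mainly through a DNA element known as GAS. Stat2 and Irf9 are themselves interferon-stimulated genes, and Socs1 is an induced inhibitor of the kinases. Neurons and glia carry these receptors, so the brain can respond to interferon in many cell types.

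RNA came from the brains of adult male Wistar rats of 250 to 300 g, with no age given, and was measured on Rat Genome 230 2.0 arrays 48 hours after stereotaxic injection into the striatum. For 4 arrays the injection was 5 µl of baculovirus vector, 50000000 particles that ultraviolet light of 254 nm had inactivated for 1 hour. For the other 4 it was the same volume of phosphate-buffered saline (PBS). Baculoviruses are insect viruses that enter mammalian cells without multiplying in them. Per the design text, PBS went into the contralateral side and 7 rats were used. With 8 arrays from 7 rats at least 2 arrays share an animal, which rat gave which array is not labelled, and the fits treat the 8 arrays as independent, so p-values measure only the spread between these samples. Inactivation was checked by the submitters on U87 glioma cells, and no group without injection was analysed here.

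The arrays correlated with each other at 0.970 to 0.985 across the 18625 probe sets above the level filter. Of the striatal projection neuron genes on the array, 11 of 11 lay above that filter. So did 10546 of the 14217 genes with a single-symbol probe set, and the share of striatal tissue in the samples was not tested. The comparison asks what the inactivated vector adds to the effect of an injection. As PBS went into the contralateral side, a response present on both sides of a brain would not show in it. Of the 18625 probe sets, 0 passed an adjusted p of 0.05 (limma, Benjamini-Hochberg over all of them), which is 0% called, and 1251 were under an unadjusted p of 0.05, which is 6.72%. The methods' t-test also gave 0 after adjustment. Values below are intensities on the deposited linear scale, log2 fold changes are inactivated baculovirus minus PBS on the scale log2(intensity + 16), and ± is the standard deviation (SD) with n = 4 arrays for intensities or the standard error (SE) for fold changes.

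None of the interferon relay genes passed the test. Of the 21 member probe sets, 18 lay above the level filter and stood for 9 genes, and both Socs1 probe sets and 1 of Ifnar1 lay below it. Among the 18, 0 passed the adjusted threshold and 0 were under an unadjusted p of 0.05. The mean was higher after inactivated baculovirus for 11 and lower for 7, where 53.7% of all tested probe sets had a higher mean. The median log2 fold change of the 18 was 0.04, beside 0.01 over all tested probe sets. It ran from 0.00754 without baculovirus replicate 1 to 0.0764 without PBS replicate 1, and was 0.0124, 0.02 and 0.07 without PBS replicates 2, 3 and 4. Without baculovirus replicate 4 and PBS replicate 2 together it was 0.0918. Limma adjusted p-values lay between 0.759 and 0.989, and the 95% intervals reached 0.14 to 0.66 to either side of the estimate. In bulk tissue a change in the number of cells that carry a receptor and a change in RNA per cell cannot be told apart.

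**Figure D1:**
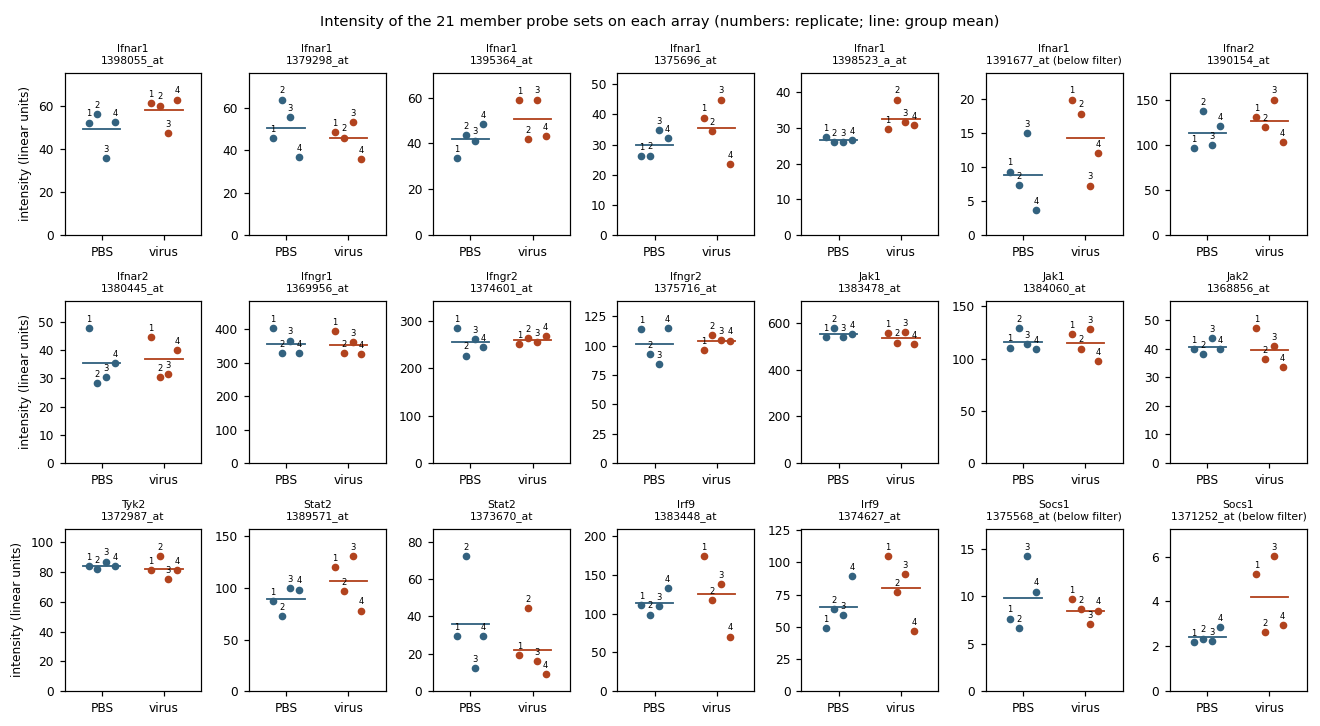
Intensity (linear units, axis from 0) of each of the 21 member probe sets on each array, with PBS arrays at left and inactivated baculovirus arrays at right in each panel; numbers are replicates and lines are group means. The groups overlap in every panel except that of Ifnar1 probe set 1398523_a_at.

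The type I receptor chains had a higher mean for 6 of 7 tested probe sets, with a median log2 fold change of 0.15 and none past the test. These probe sets read only Ifnar1 and Ifnar2, on the same arrays, and 53.7% of all tested probe sets had a higher mean. Ifnar1, the chain that carries Tyk2, is read by 6 probe sets, of which 5 were tested. On 1398523_a_at the baculovirus arrays measured 29.7, 37.9, 31.7 and 30.9 and the PBS arrays 27.4, 26.1, 26.0 and 26.6. All 4 baculovirus arrays lay above all 4 PBS arrays there, the only member probe set with separated groups among the 18. It is the dimmest tested Ifnar1 probe set, and its PBS mean of 26.5 lay beside the level filter of 26.4, with PBS replicates 2 and 3 below it. Over all tested probe sets 3.86% had separated groups, and 1.55% had them with baculovirus above PBS. Its log2 fold change was 0.19 ± 0.10 (SE), with a 95% interval of -0.03 to 0.41 (limma adjusted p = 0.759).

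The other Ifnar1 probe sets differed in direction. On 1398055_at the baculovirus arrays measured 61.4, 60.4, 47.5 and 63.1 and the PBS arrays 52.4, 56.3, 36.0 and 52.7. Replicate 3 was the low array in both groups, and the groups overlapped. On 1379298_at, the tested Ifnar1 probe set with a lower mean, the values were 48.6, 46.0, 53.4 and 36.0 after baculovirus and 45.7, 63.9, 55.6 and 36.6 after PBS. Its log2 fold change of -0.09 ± 0.14 (SE) turned to 0.00290 without PBS replicate 2. The remaining tested probe sets, 1395364_at and 1375696_at, stood at 0.20 ± 0.13 and 0.15 ± 0.14 (log2 fold change ± SE). The first was 0.13 without PBS replicate 1, and the second 0.07 without baculovirus replicate 3 and 0.28 without baculovirus replicate 4. Averaged over its 5 tested probe sets, Ifnar1 had a log2 fold change of 0.13, with a 95% interval of -0.07 to 0.33. Correlations between these probe sets over the 8 arrays ran from -0.41 to 0.73, with some below 0 and others well above it.

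Ifnar2, the chain that carries Jak1 and holds the main binding surface for interferon, is read by 2 probe sets. On 1390154_at the baculovirus arrays measured 132, 121, 151 and 104 and the PBS arrays 97.0, 138, 100.4 and 121. The highest array was baculovirus replicate 3 and the lowest PBS replicate 1, with the other arrays interleaved. The log2 fold change was 0.13 ± 0.12 (SE), with a 95% interval of -0.13 to 0.40 (limma adjusted p = 0.845). It was 0.06 without baculovirus replicate 3, 0.22 without PBS replicate 2 and 0.30 without PBS replicate 2 and baculovirus replicate 4 together. The dimmer probe set, 1380445_at, stood at 0.04 ± 0.14. It turned to -0.03 without baculovirus replicate 1 and to -0.06 without PBS replicate 2 and baculovirus replicate 4 together. The pair of Ifnar2 probe sets had a correlation of -0.42 over the 8 arrays.

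The type II receptor chains had log2 fold changes between -0.02 and 0.03 on their 3 tested probe sets, and none passed. Ifngr1, which binds interferon gamma and carries Jak1, measured 395, 330.0, 363 and 326 on the baculovirus arrays and 405, 330.1, 367 and 329 on the PBS arrays. Replicates 1 and 3 were the high arrays in both groups. The estimated log2 fold change was -0.02 ± 0.09 (SE), with a 95% interval of -0.21 to 0.18 (limma adjusted p = 0.986). Ifngr2, the chain that carries Jak2, measured 259.6 ± 6.86 against 255 ± 25.0 (SD, n = 4 each) on its brighter probe set, 1374601_at. PBS replicates 1 and 2 were the highest and the lowest of all arrays there, at 286 and 227, and the baculovirus arrays lay between 252 and 267. The log2 fold change was 0.03 on each of the Ifngr2 probe sets, with 95% intervals of -0.15 to 0.21 and -0.19 to 0.26.

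The 3 kinases had slightly lower means on all 4 of their probe sets, between -0.05 and -0.02 on the log2 scale, and none passed. Quantile normalization and median centring kept these directions, while that of Tyk2 turned to 0.00246 with array weights. Without baculovirus replicate 4, Jak1 1384060_at turned to 0.0501 and Jak2 to 0.0246, and without baculovirus replicate 3 Tyk2 turned to 0.0037. Without baculovirus replicate 4 and PBS replicate 2 together, Jak1 1384060_at stood at 0.0989 and Jak2 at 0.00582. The brighter Jak1 probe set, 1383478_at, kept its direction in these fits. Jak1, which serves both receptor types, measured 557, 516, 561 and 509.8 on the baculovirus arrays and 541, 579.6, 539.7 and 553 on the PBS arrays (1383478_at). The highest array was only 1.14 times the lowest, and 2.33% of all tested probe sets had a smaller SD within groups. In the fit its log2 fold change came to -0.05 ± 0.07 (SE), with a 95% interval of -0.19 to 0.10 (limma adjusted p = 0.907). The second Jak1 probe set, at -0.02 ± 0.10, followed the first at a correlation of 0.87 over the 8 arrays.

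Tyk2, the kinase of the type I receptor, measured 81.5, 90.9, 75.4 and 81.5 on the baculovirus arrays and 84.0, 82.0, 87.0 and 84.2 on the PBS arrays. The PBS arrays lay inside the range of the baculovirus arrays, and 4.41% of tested probe sets had a smaller SD within groups. Its log2 fold change was -0.03 ± 0.09 (SE), with a 95% interval of -0.22 to 0.16. Jak2, the kinase of the interferon gamma receptor and of many hormone receptors, measured 47.3, 36.4, 40.9 and 33.4 after baculovirus and 39.9, 38.2, 43.9 and 39.7 after PBS. Baculovirus replicate 1 was the highest array and baculovirus replicate 4 the lowest, so the baculovirus range enclosed the PBS range. Limma gave a log2 fold change of -0.03 ± 0.11 (SE), with a 95% interval of -0.26 to 0.20.

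**Figure D2:**
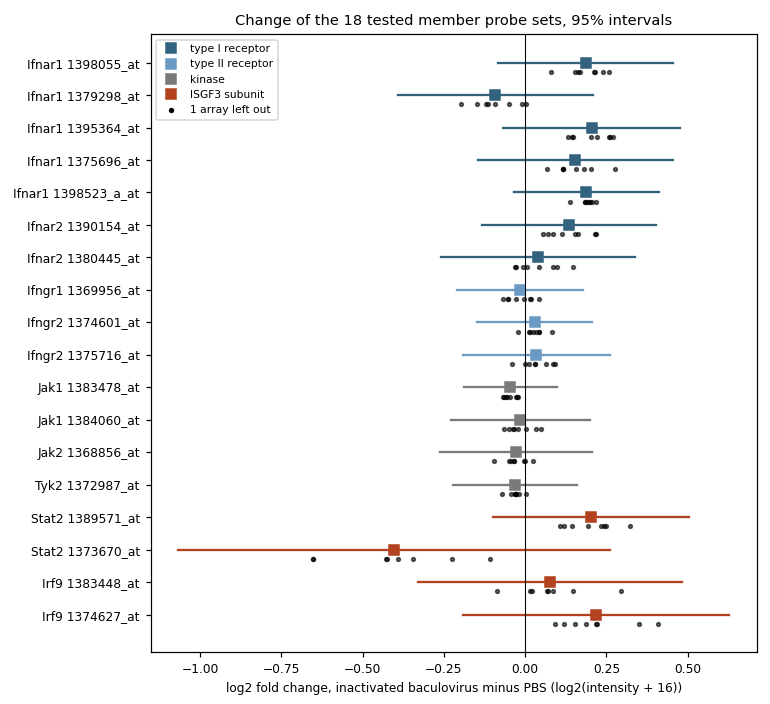
Log2 fold change (inactivated baculovirus minus PBS, log2(intensity + 16)) of the 18 tested member probe sets: squares are limma estimates with 95% intervals, coloured by role, and black dots under each are the estimates with 1 of the 8 arrays left out. All 18 intervals include 0, and the dimmer Stat2 probe set has the widest.

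Irf9 and Stat2 were the most variable members, and arrays of the same group differed more from each other than the group means did. Irf9, the DNA-binding subunit of ISGF3, measured 175, 117, 139 and 70.6 on the baculovirus arrays and 111, 98.9, 110.2 and 134 on the PBS arrays (1383448_at). The highest and the lowest of all 8 arrays, baculovirus replicates 1 and 4, both belonged to the baculovirus group, and the highest was 2.48 times the lowest. The log2 fold change was 0.08 ± 0.19 (SE), with a 95% interval of -0.33 to 0.48 (limma adjusted p = 0.957). It was -0.09 without baculovirus replicate 1 and 0.29 without baculovirus replicate 4.

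The second Irf9 probe set, 1374627_at, measured 105, 76.9, 91.2 and 46.9 on the baculovirus arrays and 49.2, 63.9, 59.2 and 89.6 on the PBS arrays. It too was highest on baculovirus replicate 1 and lowest on baculovirus replicate 4, and it followed the first at a correlation of 0.88 over the 8 arrays. Limma put its log2 fold change at 0.22 ± 0.19 (SE), with a 95% interval of -0.19 to 0.63 (limma adjusted p = 0.826), and 0.09 and 0.41 without the same arrays in turn. Of all tested probe sets, 97.2% and 97.1% had a smaller SD within groups than the 2 of Irf9.

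Stat2, the subunit of ISGF3 that carries its activation domain, is read by 2 probe sets. Their mean changes had opposite signs, and the dimmer one lay near the level filter. On 1389571_at the baculovirus arrays measured 121, 96.9, 131 and 78.2 and the PBS arrays 87.4, 72.9, 100.1 and 98.5. Baculovirus replicates 3 and 1 were highest, and PBS replicate 2 and baculovirus replicate 4 lowest. The log2 fold change was 0.20 ± 0.14 (SE), with a 95% interval of -0.10 to 0.50 (limma adjusted p = 0.788). It was 0.11 without baculovirus replicate 3 and 0.32 without baculovirus replicate 4. The dimmer probe set, 1373670_at, measured 19.4, 44.7, 16.0 and 8.91 after baculovirus and 29.7, 72.5, 12.6 and 29.3 after PBS. Its baculovirus mean of 22.2 lay below the level filter of 26.4, so it was tested only through the PBS arrays, which averaged 36.0. Its highest array was 8.14 times its lowest, with PBS replicate 2 on top, and 99.5% of tested probe sets varied less within groups. It stood at -0.40 ± 0.31 (log2 fold change ± SE), at -0.11 without PBS replicate 2 and at -0.65 without baculovirus replicate 2, and the mean of both probe sets gave -0.10 for the gene, with a 95% interval of -0.45 to 0.25.

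The promoter windows of Irf9 and Stat2 are shown because their brighter probe sets both moved with an array measure given with the array values, and 2 motifs of this pathway were searched in them. Windows run from 250 bases before to 50 bases after the RefSeq start in build GRCr8, and 8 of the 10 genes had one. The motifs were the core of the element that ISGF3 binds, written as GAAA, any 2 bases and GAAA, and TTCNNNGAA, the GAS element, on both strands. Of 33469 windows of all genes, 3.92% held the first and 8.87% the second. In capitals is the GAS match of Irf9, which overlaps no match of the other motif, and the Stat2 window held neither motif. The first window lies at chr15:33065586-33065885 (plus strand) and the second at chr7:1286840-1287139 (plus strand).
Irf9: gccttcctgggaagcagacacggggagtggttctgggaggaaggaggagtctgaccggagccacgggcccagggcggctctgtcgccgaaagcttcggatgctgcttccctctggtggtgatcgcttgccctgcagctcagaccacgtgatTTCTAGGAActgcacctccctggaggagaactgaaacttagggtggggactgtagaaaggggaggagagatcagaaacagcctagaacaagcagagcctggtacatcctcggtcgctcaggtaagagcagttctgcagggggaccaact
Stat2: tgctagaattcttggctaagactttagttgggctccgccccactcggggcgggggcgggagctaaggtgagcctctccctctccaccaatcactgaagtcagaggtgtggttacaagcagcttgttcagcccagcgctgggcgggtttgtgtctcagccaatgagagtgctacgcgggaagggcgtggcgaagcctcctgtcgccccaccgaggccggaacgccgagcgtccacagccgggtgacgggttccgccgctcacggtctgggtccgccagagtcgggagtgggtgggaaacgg

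Socs1, the inhibitor that binds the activated kinases, was dim on both of its probe sets and was not tested. On 1375568_at it measured 8.49 ± 1.11 after baculovirus and 9.79 ± 3.42 after PBS, and on 1371252_at 4.21 ± 1.68 against 2.40 ± 0.318 (SD, n = 4 each), where the level filter lay at 26.4. On the latter, baculovirus replicates 1 and 3 stood at 5.22 and 6.04 and the other 6 arrays between 2.18 and 2.94. Its promoter window (chr10:5389324-5389623, plus strand, GRCr8) was the only 1 of the 8 members' windows with the ISGF3 core. The matches GAAAGAGAAA and GAAACCGAAA overlap each other and begin at positions -107 and -101 from the start, and a GAS match, TTCAGGGAA, begins at -196. A GAS match was also found in the window of Ifnar2, TTCCTGGAA, so 3 of the 8 windows held GAS, and 5 held neither motif. The Ifnar1 probe set below the filter, 1391677_at, measured 14.3 ± 5.75 against 8.85 ± 4.79.

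Array by array, the brighter Irf9 probe set ordered the samples as the targets of the relay did. The mean level of 23 tested interferon-stimulated target genes, a list without members, stood at 0.87, 0.22, 0.39 and -0.75 on the baculovirus arrays and at -0.25, -0.45, -0.31 and 0.28 on the PBS arrays (log2, each gene centred on its mean). From baculovirus replicate 1 at the top, through baculovirus 3, PBS 4, baculovirus 2, PBS 1, PBS 3 and PBS 2, to baculovirus replicate 4 at the bottom, the order of the 8 arrays was the same for that list and for the brighter Irf9 probe set. On the latter, PBS replicates 1 and 3 were nearly level, at 111.1 and 110.2. The dimmer Irf9 probe set differed from this order, with PBS replicate 1 below PBS replicates 2 and 3 (49.2 against 63.9 and 59.2). Of the 18 tested member probe sets, 9 were lowest on baculovirus replicate 4, with some genes in this count through more than 1 probe set. The same share over all tested probe sets was not counted, so this cannot be read as a trait of the members. The pair of different genes with the highest correlation over the 8 arrays was Stat2 (1389571_at) with Ifnar1 (1375696_at), at 0.95, among 138 such pairs whose median was 0.10; the 15 pairs of probe sets within a gene had a median of 0.16.

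**Figure D3:**
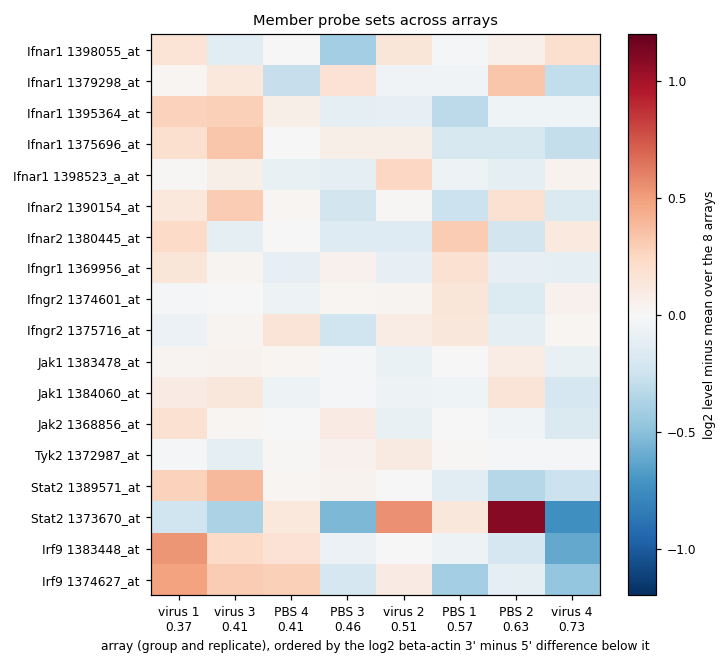
Log2 level of the 18 tested member probe sets minus their mean over the 8 arrays (colour, red above and blue below the mean), with arrays ordered from the smallest to the largest beta-actin 3' minus 5' difference, printed under each. Both Irf9 probe sets and the brighter Stat2 probe set are above their mean on the leftmost arrays of both groups and below it on the rightmost, while the kinases stay pale.

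A measure of RNA quality and labelling moved with both Irf9 probe sets, the brighter Stat2 probe set and 1 Ifnar1 probe set, and not detectably with the dimmer Stat2 probe set. It compares the control probe sets at both ends of the beta-actin transcript, as the log2 signal of the 3' one minus the 5' one. Over the 8 arrays it ran from 0.368 to 0.729. The same difference for the GAPDH controls ran only from -0.107 to -0.0363, and its relation to the members was not tested. The beta-actin difference averaged 0.504 ± 0.162 on baculovirus arrays against 0.520 ± 0.0998 on PBS arrays (SD, n = 4 each), and an exact two-sided permutation test gave p = 0.886. Each gene was first taken by its brightest probe set. Over the 8 arrays the level of Irf9 had Pearson's r = -0.939 with it (exact permutation p = 0.000174, or 0.00174 after Benjamini-Hochberg adjustment over 10 member genes). Its Spearman's rho was -0.929, with an exact permutation p = 0.00223 (adjusted 0.0112). For Stat2 r was -0.877 (exact permutation p = 0.00427, adjusted 0.0213) and rho -0.929 (exact permutation p = 0.00223, adjusted 0.0112). Without the 2 arrays farthest from the median difference, baculovirus replicate 4 and PBS replicate 2, r was -0.833 for Irf9 and -0.807 for Stat2. Jak2 had r = -0.795 (exact permutation p = 0.0179, adjusted 0.0596) and rho = -0.786 (exact permutation p = 0.0279, adjusted 0.0931), and r = -0.589 without these arrays. Among the other 7 genes, on these probe sets, the lowest adjusted value for either coefficient was 0.450. All 18 tested probe sets and the level of the target genes were then examined as 19 relations. The second Irf9 probe set, 1374627_at, had r = -0.851 (exact permutation p = 0.00881, adjusted 0.0335) and rho = -0.881 (exact permutation p = 0.00724, adjusted 0.0275), and r = -0.884 without the same 2 arrays. Ifnar1 1375696_at, a dimmer probe set of its gene, had r = -0.879 (exact permutation p = 0.00412, adjusted 0.0203) and rho = -0.881 (exact permutation p = 0.00724, adjusted 0.0275), and r = -0.760 without them. The dimmer Stat2 probe set, 1373670_at, had r = 0.121 (exact permutation p = 0.774, adjusted 0.971) and rho = 0.143 (exact permutation p = 0.752, adjusted 0.841). These relations were examined because the same measure was already known to move with interferon-stimulated genes on these arrays, and they are not independent of that. With the difference as a covariate, the log2 fold change of the brighter probe set was 0.04 ± 0.10 (SE) for Irf9 and 0.17 ± 0.09 for Stat2 (limma adjusted p = 0.957 and 0.698). On the dimmer ones it was 0.18 ± 0.12 for Irf9 and, in the opposite direction, -0.40 ± 0.31 for Stat2 (limma adjusted p = 0.759 and 0.790). The part of RNA quality in the levels was not tested beyond these values.

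**Figure D4:**
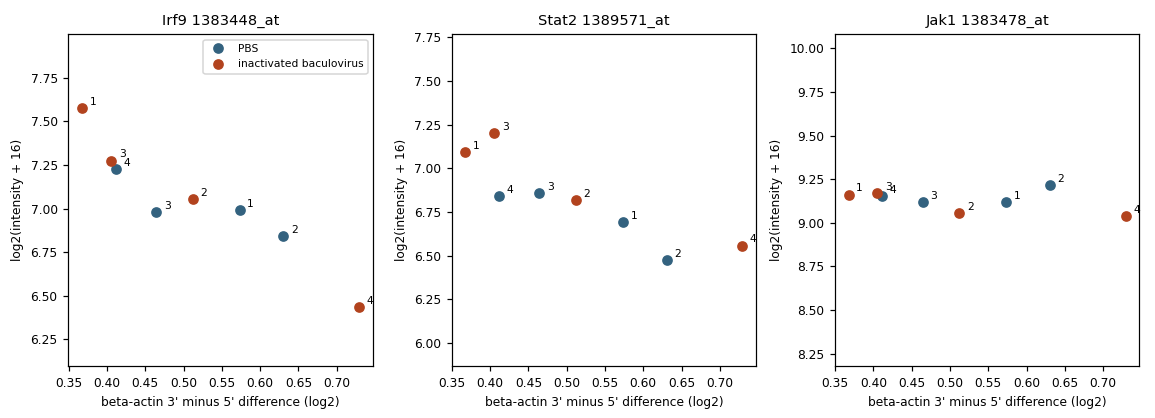
Log2(intensity + 16) of Irf9, Stat2 and, for contrast, Jak1 (probe set with the highest mean) against the log2 beta-actin 3' minus 5' difference, 1 point per array, numbered by replicate; the vertical axes span the same log2 range. In both groups Irf9 and Stat2 are lower at the right end than at the left, and Jak1 spans a narrow range.

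For each member gene the 2 genes with the most similar pattern were taken by Pearson correlation over the 8 arrays, among the 10545 other tested genes, as a description without a test. Irf9 was closest to Lgals3bp, a secreted galectin-3 ligand, and to Cyria, at 0.98 each. Stat2 was closest to Arpc1b, a subunit of the actin-nucleating Arp2/3 complex, at 0.98 and Mreg at 0.96. Among the kinases, Jak1 was closest to Vps4b and the GABA-A receptor subunit Gabrb2 (0.97 and 0.96), Jak2 to the collagen Col5a2 and the interleukin-6 receptor Il6r (0.96 each), and Tyk2 to Fance and Tubb6 (0.98 and 0.93). For the receptors these were Irf2bp2 and Mpp3 for Ifnar1 (0.97 each), Pgm1 and a probe set annotated to Mir23b for Ifnar2 (0.98 each), Plod2 and Ccdc137 for Ifngr1 (0.98 and 0.96), and Ppil1 and Cep19 for Ifngr2 (0.97 each). For Socs1, which lay below the filter, they were Ttc17 and Fggy (0.96 and 0.95).

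Upstream of the receptors, the interferons themselves were dim. Of 13 interferon genes listed, 3 had a probe set with a single symbol and 0 were above the level filter. Ifng, the ligand of Ifngr1 and Ifngr2, measured 9.84 ± 3.86 after baculovirus and 11.9 ± 5.95 after PBS, and Ifnb1, a ligand of Ifnar1 and Ifnar2, 3.82 ± 1.03 against 2.79 ± 1.62 (SD, n = 4 each).

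Beside the members, 2 of 6 other STAT and JAK genes on the array were tested, both with higher means and 0 past the test. Stat3, which relays interleukin-6 signals, stood at 0.07 ± 0.13 and Stat5a at 0.22 ± 0.14 (log2 fold change ± SE, limma adjusted p = 0.930 and 0.781). Without PBS replicates 1 and 4 in turn Stat5a was at 0.09 and 0.33, and Stat3 was at -0.00371 without PBS replicate 1 and at 0.18 without baculovirus replicate 4. Among 12 tested chains of other JAK-coupled cytokine receptors 8 means were higher and 4 lower, with 0 past the test and 1 under an unadjusted p of 0.05. The smallest p-values among these chains were those of Csf2ra, Il2rg and Crlf2. Csf2ra, a chain of the receptor for the growth factor GM-CSF, stood at 0.28 ± 0.11 (limma adjusted p = 0.719). It was the 1 under that unadjusted p. The PBS arrays averaged 23.2 for Csf2ra, below the level filter of 26.4, where the baculovirus arrays averaged 31.5. Csf2ra was thus tested only through the group in which it was higher. Il2rg, the shared chain of interleukin-2 type receptors, stood at 0.30 ± 0.14 and Crlf2 at 0.29 ± 0.16 (limma adjusted p = 0.741 and 0.759). Crlf2 was at 0.17 without PBS replicate 3.

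Negative regulators of the relay had 7 higher and 7 lower means among 14 tested, a median of -0.00527 and 0 past the test. Usp18, an interferon-induced protease that binds Ifnar2 and damps its signal, measured 234, 108, 138 and 39.8 on the baculovirus arrays and 58.1, 53.4, 64.4 and 103 on the PBS arrays. It was highest on baculovirus replicate 1 and lowest on baculovirus replicate 4, as Irf9 was. Its log2 fold change was 0.61 ± 0.34 (SE), with a 95% interval of -0.12 to 1.33 (limma adjusted p = 0.760). It was 0.29 without baculovirus replicate 1 and 1.01 without baculovirus replicate 4. Pias2, a STAT-binding SUMO ligase, and Socs5 stood at -0.14 ± 0.09 each, and at -0.08 without baculovirus replicate 1 and without PBS replicate 2 respectively. Socs3, the inhibitor of interleukin-6 type receptors, was below the filter at 26.1 ± 2.62 against 18.6 ± 4.57 (SD, n = 4 each) and was not tested. Its groups did not overlap. Of the tested probe sets, 1.55% had baculovirus above PBS without overlap, and no such share was counted below the filter.

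Downstream, all 23 tested interferon-stimulated target genes had a higher mean, with a median log2 fold change of 0.30, 0 past the test and 2 under an unadjusted p of 0.05. Over all tested probe sets 53.7% had a higher mean and 6.72% were under that unadjusted p. Without baculovirus replicate 1 the higher means were 18 of 23 and the median 0.06, and without baculovirus replicate 4 they were 23 and 0.64. The mean level of these genes over the 8 arrays had r = -0.890 with the beta-actin difference (exact permutation p = 0.00380, adjusted 0.0203) and rho = -0.929 (exact permutation p = 0.00223, adjusted 0.0141), and r = -0.768 without the 2 arrays named there. That this measure moves with interferon-stimulated genes on these arrays was already known, so these p-values are no independent support. With the beta-actin difference as a covariate 22 of 23 means were higher, with a median of 0.27. Oasl, Ifit3 and Igtp had the smallest p-values, at 0.53 ± 0.18, 0.92 ± 0.38 and 0.50 ± 0.25 (log2 fold change ± SE, limma adjusted p = 0.690, 0.719 and 0.746). Irf7, the factor that amplifies interferon production, measured 701, 386, 509 and 59.8 after baculovirus and 223, 157, 165 and 449 after PBS. The lowest of these 8 values was that of baculovirus replicate 4 and the highest that of baculovirus replicate 1, so the groups overlapped over the whole range. Without baculovirus replicate 1 the log2 fold changes of Ifit3, Igtp and Irf7 were 0.56, 0.31 and 0.05, beside 0.43 for Irf7 over all arrays, and without baculovirus replicate 4 that of Irf7 was 1.13.

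Cell type markers are given beside the members because several brain and blood cells carry these receptors. Sums are over every listed marker on the array, those below the level filter included. Among 11 tested microglia markers 9 means were higher and 2 lower, and their summed intensity ran from 2031 to 2728 on baculovirus arrays and from 1824 to 2744 on PBS arrays. Only 3 of 14 T and NK cell markers were tested, with 2 higher, and all 14 summed to 289 to 346 against 229.6 to 307; Cd3d, Cd3e, Cd3g and Cd8a lay below the filter. Striatal projection neuron markers had 2 higher and 9 lower (sums 5348 to 7100 against 5598 to 7355), astrocyte markers 3 and 4 (7033 to 7673 against 6903 to 8190.2), and endothelial markers 5 and 2 (963 to 1021 against 906 to 972). Choroid plexus markers had 4 higher of 4 tested, and the 7 on the array summed to 1769 to 2256 against 158 to 2175, the lowest through PBS replicate 4. None of these markers passed the adjusted threshold. The part of cell composition in the members' levels was not tested.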

How the data were processed

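The table deposited by the authors holds linear intensities; arrays were scanned with the GCOS software and GCRMA is also named, per the submitters' processing notes, and which algorithm made these values is not stated per the labels. On every array the mean after trimming 2% at each end was 100.02, so arrays had been scaled alike. Detection calls were not used here. No columns belonged to other samples.

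Of 31099 probe sets, 57 controls were left out. A single symbol is given by the platform annotation to 20826 probe sets, more than 1 to 436 and no symbol to 9780, and the RefSeq table, which held 20758 of the single symbols by gene number, changed 0. Intensities were turned into log2(intensity + 16) with no further normalization (array medians 5.74 to 5.85), and those whose mean intensity exceeded the 40th percentile entered limma 3.58.1 in R 4.3.3 (lmFit and trended eBayes, two-sided, without a block). The permutation test of the beta-actin difference between groups was made in scipy 1.17.1, and its smallest p with 4 against 4 arrays is 0.0286. Permutation p-values of correlations came from all orders of the 8 arrays, so that limit does not apply to them. Precision is limited by having 4 arrays a group. The fits were tested on simulated data with known changes.

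Named were all member probe sets, the 3 genes of each pathway list with the smallest p, 7 fixed genes (1 of them is not reported here) and the 2 genes most like each member. A list gene was represented by its brightest single-symbol probe set. Members, lists and tests were chosen with earlier results of these data known. Alternatives were other offsets, normalizations, filters, variance models, the methods' t-test, a replicate block, the beta-actin covariate and each array left out; leaving out the 2 arrays with extreme actin differences and the correlations with that difference, and the lists' counts under each alternative, were added after seeing the data.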

Additional observations from a re-analysis of the deposited data

Results flagged for a closer look

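In a test for a value far from the other 3 of its group, made on 60 groups of 4 arrays (30 probe sets, members and named pathway genes), 2 values stood out. Chance gives about 1 in 20 groups, so this count was not above the chance rate. Both belong to Ifnar1 probe set 1398055_at and both are the third replicate: 47.5 on the baculovirus array, where the other arrays of its group lay between 60.4 and 63.1, and 36.0 on the PBS array, where the others lay between 52.4 and 56.3. The log2 fold change of this probe set, 0.19, was 0.26 without the first of these arrays and 0.08 without the second.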

How the results depend on the processing

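No setting brought a member probe set past an adjusted p of 0.05: the count was 0 in each. Over all tested probe sets it was also 0 in each. The number of member probe sets with a higher mean was 11 of 18 and became 6 of 10 with the level filter at the 60th percentile, where fewer probe sets are tested; it ran from 9 to 14 with 1 array left out. With all 8 arrays kept, 2 directions turned, that of Tyk2 with array weights (0.00246) and that of the Stat2 gene as the mean of its probe sets (-0.10). Without baculovirus replicate 4 and PBS replicate 2 together, the member median was 0.0918 and the directions of 7 member probe sets turned: Ifnar1 1379298_at (0.0848), Ifnar2 1380445_at (-0.0619), both of Ifngr2 (-0.0352 and -0.00199), Jak1 1384060_at (0.0989), Jak2 (0.00582) and Stat2 1373670_at (0.0722). With 1 array left out, 129 of 144 member estimates kept their direction. Those of Ifnar1 1379298_at ran from -0.198 to 0.00290, Ifnar2 1380445_at from -0.0316 to 0.149, Ifngr1 from -0.0684 to 0.0432, Ifngr2 1374601_at from -0.0219 to 0.0824 and 1375716_at from -0.0403 to 0.0905, Jak1 1384060_at from -0.0634 to 0.0501, Jak2 from -0.0948 to 0.0246, Tyk2 from -0.0719 to 0.00374 and Irf9 1383448_at from -0.0867 to 0.294. Of 96 estimates for the named pathway genes outside the members 95 kept theirs, and Stat3 ran from -0.00371 to 0.180. The cause of these turns was not tested. Same-numbered arrays did not deviate together (correlations of -0.0031, 0.02, 0.0089 and 0.0010). These values cannot show whether same-numbered arrays came from the same rat. With the replicate block the counts were 0 over all and 0 for members, with 11 higher and a median of 0.04. Dim probe sets such as those of Socs1 have no test.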
